A study of Mus musculus with 6 samples.

Results

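The genes described here are 10 regulators and markers of the bone and fat fates of mesenchymal cells, namely Runx1, Runx2, Runx3, Sp7, Alpl, Pparg, Cebpa, Cebpb, Cebpd and Fabp4. They were taken by name from the 55401 genes counted. Of these, 9 were among the 18539 genes with enough counts to be tested, and Sp7 was not. They were measured by bulk RNA-Seq in NIH3T3 cells, an immortalized line of mouse embryonic fibroblasts. There were 2 libraries of cells with an empty vector treated with DMSO (EV), 1 library of cells with TAZ-CAMTA1 treated with DMSO (TC) and 3 libraries of cells with TAZ-CAMTA1 treated with 10 μM aurintricarboxylic acid (TC + ATA). Treatment lasted 48 h in every group. TAZ-CAMTA1 joins the transcriptional coactivator TAZ to CAMTA1, and aurintricarboxylic acid (ATA) is the compound the study tested as a disruptor of the binding of TAZ to TEAD factors. TC expression came from an introduced construct in stably expressing cells. The labels give no clone, passage or culture for any library, so the p-values measure the spread between these libraries, which may be technical.

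TAZ is known from mesenchymal progenitors as a coactivator of RUNX2 and a repressor of PPARγ, and so as a factor that tips the balance from fat toward bone. RUNX2 is the master transcription factor of the osteoblast and acts upstream of SP7 (osterix), and tissue-nonspecific alkaline phosphatase, encoded by Alpl, is an enzyme that osteoblasts need to mineralize their matrix. In fat cell differentiation, C/EBPβ and C/EBPδ are made first and switch on PPARγ and C/EBPα, which then maintain each other and turn on markers such as the fatty acid carrier FABP4.

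The short stretches of promoters printed below were chosen because they hold letters searched for as binding sites of TEAD, RUNX or C/EBP factors. RefSeq promoter windows on GRCm38.p6, from 250 bases before to 50 bases after a transcription start, were at hand for 7 of the 10 genes (12 windows), and not for Sp7, Cebpd and Fabp4. The letters searched, on both strands, were GGAATG for TEAD factors, TGTGGT for RUNX factors and TTGCNNAA for C/EBP factors. Capitals mark a match on either strand, and each sequence reads 5′ to 3′ on the strand of its gene.
Runx1, distal window, chr16:92826025-92826054, minus strand: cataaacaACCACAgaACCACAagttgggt
Runx2, chr17:44814583-44814612, minus strand: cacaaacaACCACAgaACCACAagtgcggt
Runx3, distal window, chr4:135120503-135120532, plus strand: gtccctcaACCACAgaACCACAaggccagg
Pparg, most downstream window, chr6:115421840-115421869, plus strand: tgtaccaagtcTTGCCAAAgcagcagacag
Pparg, the same window nearer the start, chr6:115422039-115422068, plus strand: accaaccaatcTTTTGCAAgacatagacaa
Runx1, proximal window, chr16:92697367-92697396, minus strand: aaacgagctgagGGAATGgaattcctcggg

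Each of the 3 RUNX genes had a window with a pair of RUNX letters on the reverse strand, set apart by the same 2 bases. In Runx1 and Runx2 the pair began 29 and 24 bases into the transcript, and in Runx3 it began 134 bases before the start. The single letters were found in 16.8% of all 32851 windows. The pair with any 2 bases between, a form chosen after the matches were seen, was found in 7 windows (0.0213%), of which 3 belonged to RUNX genes. The C/EBP letters, found in 10.8% of all windows, occurred 215 and 16 bases before the most downstream of the Pparg starts and 48 bases before the Runx2 start. The TEAD letters, found in 14.7% of all windows, occurred among the 12 windows only in the proximal Runx1 window. A match describes the sequence and is not a measured binding site. The counts are per gene and do not separate transcripts from alternative promoters, as those of Runx1, Runx3, Alpl or Pparg. For Runx2 only 1 window was at hand, so any other start of this gene was not searched.

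The libraries held between 58471484 and 74413193 counts, with a median of 71053010. At this depth, 3 counts correspond to between 0.0393 and 0.0528 CPM, the TMM-scaled counts relative to library size, which is taken here as the floor of detection. Reads assigned to Wwtr1, the gene of TAZ, came to 110 and 104 CPM in EV, 139 CPM in TC and 131, 129 and 131 CPM in TC + ATA, and do not separate the introduced from the endogenous gene. The EV libraries stood further apart than the TC + ATA libraries did, with a chi-square statistic of the counts per degree of freedom of 61.3 for the EV pair and of 5.86 to 6.61 for the TC + ATA pairs. The 9 fibroblast markers summed to 14700 to 19400 CPM, but moved unequally with TC. In TC versus EV, Col1a1 and Vim were higher (log2FC 0.53 and 0.64, adjusted p = 0.0103 and 0.00658 from edgeR), and Thy1, Pdgfra and Fn1 were lower (log2FC −1.47, −1.20 and −0.83, adjusted p = 1.03e-05, 1.31e-05 and 0.00259 from edgeR). The part of such marker shifts in the results was not tested. In bulk RNA, fewer cells that express a gene and less RNA per cell cannot be told apart.

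The 10 genes fell into groups of very different level. Per kilobase of exon in EV, Cebpb stood highest at 67.8 CPM/kb, followed by Cebpd (26.1), Runx2 (4.11) and Runx1 (1.29). Fabp4 (0.350), Pparg (0.193) and Runx3 (0.125) were far lower on that scale. The exon length used is the union over all annotated transcripts of a gene. For Fabp4 it is 4489 bases and covers the whole gene from 10204088 to 10208576, so its level per kilobase may be too low. Cebpa (0.0427), Alpl (0.0296) and Sp7 (0.00787) came last. The 2 EV libraries of neighbours in this order did not overlap, but the last 3 rest on 0 to 10 counts per library, where counting error alone is large. With these exon lengths, transcripts of the early regulators of both fates stood at higher levels per kilobase than those of the later genes. Of the later genes, Sp7, Alpl and Cebpa lay at or near the floor and Fabp4 above it. The place of Fabp4 in the order depends on the exon length used.

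**Figure D1:**
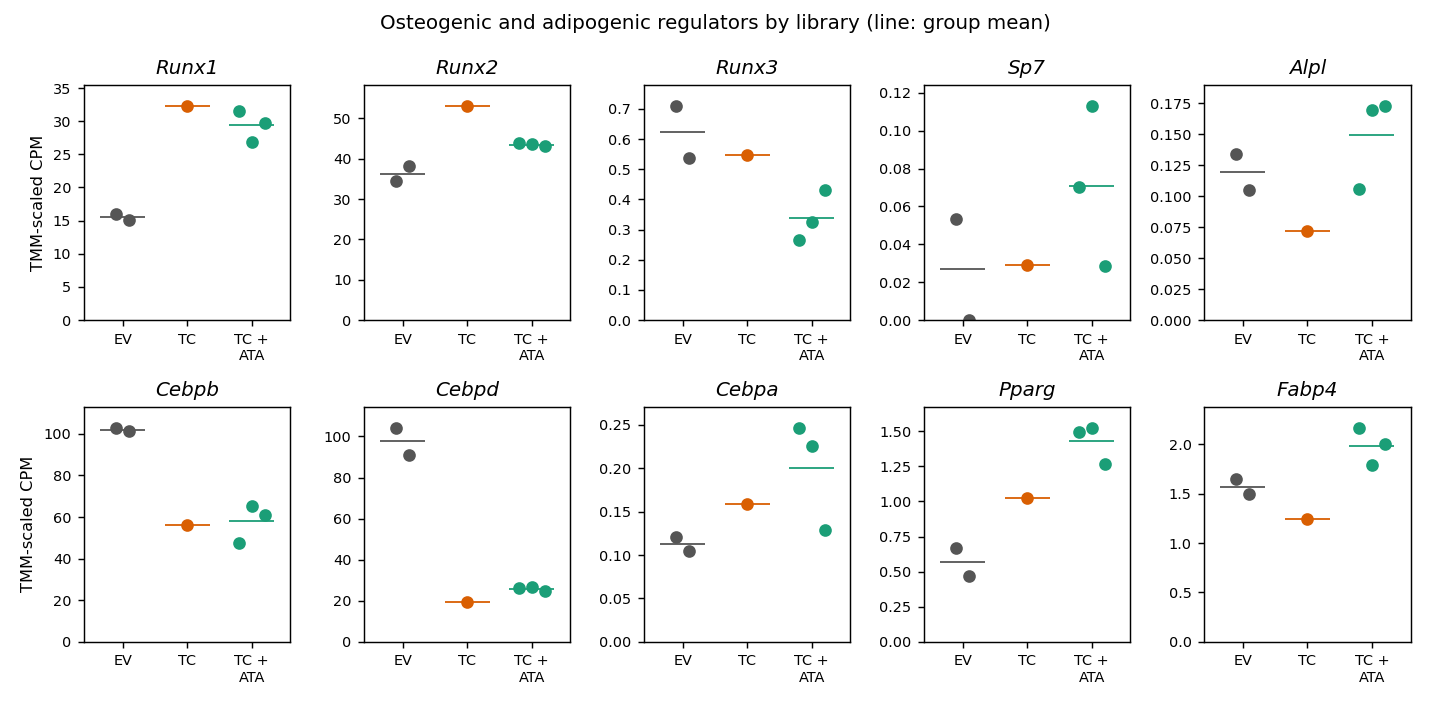
TMM-scaled CPM of each of the 10 genes (y axis, linear from 0, a separate scale per gene) in the EV, TC and TC + ATA libraries (x axis). Points are libraries and lines are group means. Runx1 and Runx2 are higher and Cebpb and Cebpd lower in every library with TC than in both EV libraries, while Sp7, Alpl and Cebpa stay under 0.25 CPM throughout.

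Between TC and EV, Runx1 and Runx2 rose and Cebpb and Cebpd fell. These were 4 of the 9 genes tested, at an adjusted p of at most 0.05, against 28.0% of all genes tested. The 2 that rose compare with 14.8% of all genes called higher, and the 2 that fell with 13.2% called lower. Fold changes are given as log2FC, the log2 of the ratio of the group named first to the other, with a 95% interval or standard error from the fit. Only Cebpd also passed an absolute log2FC of 2, the limit the study used. It did so in the lower direction, as did 1.27% of all genes, and no member did in the higher one, against 2.36%. The TC library lay above both EV libraries for 4 genes (Runx1, Runx2, Pparg and Cebpa), as for 38.9% of all genes, and below both for 4 (Alpl, Cebpb, Cebpd and Fabp4), as for 40.0% of all genes. The median log2FC was −0.19 over the 9 genes and −0.03 over all genes tested. The TC group has 1 library, so the spread was estimated from the replicates of the other groups.

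Runx2 (chromosome 17, 44495987 to 44814797, minus strand) had 34.4 and 38.15 CPM in EV, 53.0 CPM in TC and 43.9, 43.6 and 43.0 CPM in TC + ATA. The groups did not overlap, and the TC + ATA libraries lay between the EV libraries and the TC library. Relative to EV, the difference was 1.46-fold for TC (log2FC 0.55, standard error 0.09, adjusted p = 0.00182 from edgeR). For TC + ATA over EV, log2FC was 0.26 (adjusted p = 0.0154 from edgeR, standard error 0.07). The second call was lost without any 1 of the TC + ATA libraries (adjusted p = 0.0633, 0.0656 and 0.0553 from edgeR without replicates 1, 2 and 3), with a replicate block (0.0858) and with scaling to library size alone (0.153). Runx2 shares 519 of its 8837 exonic bases with Runx2os1 on the opposite strand, which held 21 to 34 counts per library against 2493 to 3679 for Runx2.

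Runx1 (chromosome 16, 92601466 to 92826149, minus strand), the RUNX factor best known from blood formation, changed more than Runx2. It had 16.0 and 15.03 CPM in EV, 32.2 CPM in TC and 31.5, 26.9 and 29.8 CPM in TC + ATA. Every library with TC stood well above both EV libraries. The log2FC over EV was 1.06 for TC (standard error 0.11, adjusted p = 0.000137 from edgeR) and 0.92 for TC + ATA (standard error 0.09, adjusted p = 5.06e-05 from edgeR). Blood cell markers were low in these libraries. Their sum over 9 genes was 15.8 to 16.5 CPM in EV and 17.4 to 22.8 CPM with TC. More than any other gene, Cd14 made up this sum, and it was the 1 gene of the 6 tested that was called higher in TC (log2FC 1.08, adjusted p = 0.000183 from edgeR). Csf1r, the macrophage growth factor receptor, went the other way, with 3.17 and 2.77 CPM in EV, 1.41 CPM in TC and 1.72, 0.846 and 1.15 CPM in TC + ATA, and was called lower in TC + ATA versus EV (log2FC −1.27, adjusted p = 0.00709 from edgeR). Cd68 had a log2FC of −0.22 for TC over EV (adjusted p = 0.729 from edgeR). Ptprc, the pan-leukocyte marker CD45, had 3.17 and 2.87 CPM in EV, 2.23 CPM in TC and 0.282, 5.33 and 4.21 CPM in TC + ATA. Cd3e had 0.562 and 0.341 CPM in EV, 0.331 CPM in TC and 0.123, 0.649 and 0.618 CPM in TC + ATA. The remaining markers were lower, with Cd79a at or below 0.173 CPM and Spi1, Itgam and Adgre1 at or below 0.123 CPM. Whether other cells have a part in the Runx1 result was not tested.

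Runx3 (chromosome 4, 135120652 to 135177990, plus strand), the family member with the lowest counts, held 53 and 41 counts in EV, 38 in TC and 15, 23 and 30 in TC + ATA. These are 0.709 and 0.538 CPM in EV, 0.548 CPM in TC and 0.264, 0.324 and 0.431 CPM in TC + ATA. The 3 TC + ATA libraries were the lowest of the 6, and TC fell between the EV libraries. The difference did not pass the test in TC + ATA versus EV (log2FC −0.86, 95% interval −1.73 to 0.00, adjusted p = 0.111 from edgeR). In TC versus EV it was −0.19, with an interval from −1.33 to 0.96.

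As shares of the summed counts per kilobase of the RUNX genes, Runx2 made up 72.6% and 76.1% in EV, 68.2% in TC and 65.0%, 68.1% and 65.5% in TC + ATA. The share of Runx1 was 24.8% and 22.0% in EV, 30.5% in TC and 34.3%, 31.0% and 33.3% in TC + ATA. Runx2 was the main RUNX transcript in all 6 libraries, and its share was lower in each library with TC than in either EV library. These shares come from within 1 library and do not depend on scaling between libraries, but they do depend on the exon lengths used. Cbfb, whose product pairs with all RUNX proteins on DNA, had 143 and 133 CPM in EV, 129 CPM in TC and 121, 125 and 120 CPM in TC + ATA. Its log2FC in TC versus EV was −0.10 (adjusted p = 0.411 from edgeR, and 0.0259 without EV replicate 2).

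The late osteogenic genes were close to the floor. Sp7 (chromosome 15, 102356606 to 102367182, minus strand) held 4 and 0 counts in EV, 2 in TC and 4, 8 and 2 in TC + ATA, too few for the test. The 0 in the second EV library allows up to 0.0393 CPM. Alpl (chromosome 4, 137741733 to 137796384, minus strand) held 10 and 8 counts in EV, 5 in TC and 6, 12 and 12 in TC + ATA. The groups of Alpl overlap in TC + ATA and EV, and at this depth no difference was detectable. Its log2FC in TC versus EV was −0.71 with a 95% interval from −2.86 to 1.44, which leaves room for a several-fold change in either direction (adjusted p = 0.635 from edgeR). The other alkaline phosphatase genes Alpi, Akp3 and Alppl2 did not pass the filter and stayed at or below 0.0564 CPM.

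Cebpd (chromosome 16, 15887286 to 15891031, plus strand) showed the largest change of the 9 genes tested. It had 104 and 91.0 CPM in EV, 19.4 CPM in TC and 26.0, 26.6 and 25.0 CPM in TC + ATA. EV stood far above every library with TC, and the TC + ATA libraries all lay a little above TC. The log2FC over EV was −2.33 for TC (standard error 0.11, adjusted p = 1.62e-06 from edgeR) and −1.92 for TC + ATA (standard error 0.07, adjusted p = 2.34e-07 from edgeR). Cebpd shares 562 of its 3746 exonic bases with Spidr on the opposite strand. Spidr was also lower in TC than in EV (log2FC −1.04, adjusted p = 0.000162 from edgeR) and held 3053 and 3599 counts in EV against 7789 and 6942 for Cebpd. Whether reads were counted by strand is not given in the sources used here, so the part of shared reads in the Cebpd change was not tested.

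Cebpb (chromosome 2, 167688915 to 167690418, plus strand), which encodes the other early C/EBP factor, fell less. It had 103 and 101 CPM in EV, 56.3 CPM in TC and 47.7, 65.4 and 61.0 CPM in TC + ATA. The TC + ATA libraries spread around the TC value and all stayed below EV. The log2FC over EV was −0.86 for TC (standard error 0.16, adjusted p = 0.00400 from edgeR) and −0.81 for TC + ATA (standard error 0.11, adjusted p = 0.000558 from edgeR). The 95% intervals in TC versus EV, −2.59 to −2.07 for Cebpd and −1.22 to −0.49 for Cebpb, did not overlap. Cebpb shares 312 of its 1504 exonic bases with Tmem189 on the opposite strand, whose level was 19.1 and 21.01 CPM in EV and 19.6 CPM in TC.

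Within the summed counts per kilobase of the 3 C/EBP genes, Cebpd made up 28.9% and 26.5% in EV, 12.1% in TC and 17.9%, 14.0% and 14.1% in TC + ATA. Cebpb made up 71.0% and 73.4% in EV and between 81.8% and 87.7% in the libraries with TC. The size of these shares depends on the exon lengths used, 1504 bases for Cebpb and 3746 for Cebpd. In counts alone both genes were at a similar level in EV, with 7686 and 7719 for Cebpb and 7789 and 6942 for Cebpd. The mixture was thus shifted toward Cebpb in every library with TC. The share of Cebpa was at most 0.241% in any library. Of the other C/EBP genes, Cebpg and Cebpz had log2FC values in TC versus EV of 0.03 and −0.08 (adjusted p = 0.847 and 0.623 from edgeR). The sign was reversed for Cebpg by scaling to library size alone (−0.08). Cebpe had a count in 1 library only.

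**Figure D2:**
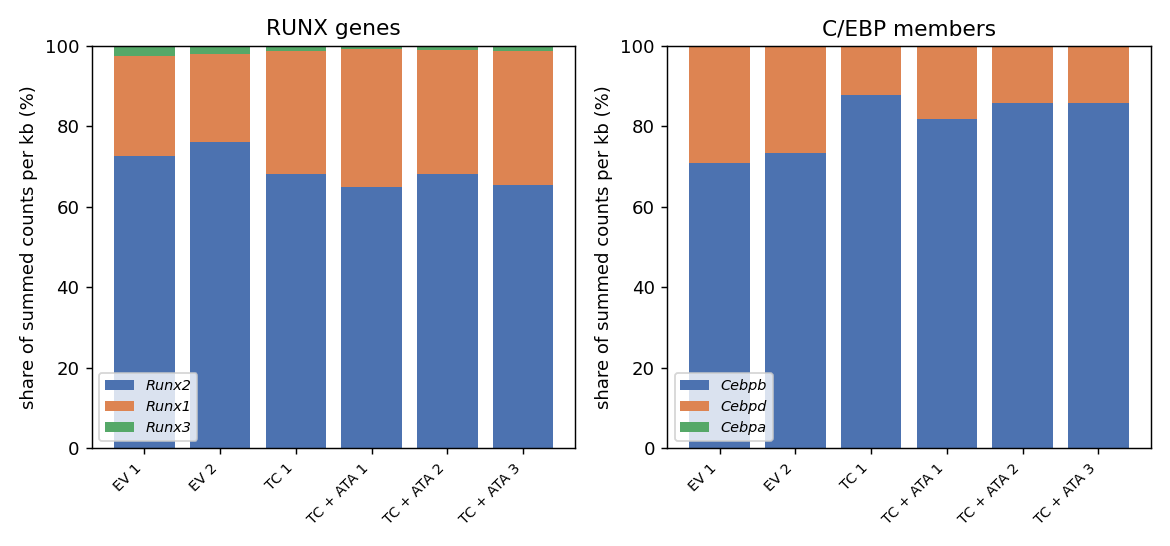
Share of each gene (y axis, percent) in the summed counts per kilobase of exon of the RUNX genes (left) and of the 3 C/EBP genes (right), by library (x axis). The Cebpd share is 26.5% or more in EV and 17.9% or less in every library with TC, and the Runx1 share is 24.8% or less in EV and 30.5% or more with TC.

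Pparg (chromosome 6, 115360951 to 115490399, plus strand), the nuclear receptor that commits cells to fat, was rare in every library. It held 50 and 36 counts in EV, 71 in TC and 85, 108 and 88 in TC + ATA. On the scaled level this was 0.669 and 0.472 CPM in EV, 1.02 CPM in TC and 1.50, 1.52 and 1.27 CPM in TC + ATA. The groups did not overlap, with EV lowest and TC + ATA highest. Pparg rose 2.50-fold from EV to TC + ATA (log2FC 1.32, standard error 0.28, 95% interval 0.68 to 1.97, adjusted p = 0.00597 from edgeR). In TC versus EV the log2FC was 0.84 (standard error 0.37, 95% interval 0.01 to 1.67) and did not pass the test (adjusted p = 0.124 from edgeR). The difference between these results, which is TC + ATA versus TC, was 0.48 (standard error 0.35, adjusted p = 0.721 from edgeR), so they are not shown to differ.

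Cebpa (chromosome 7, 35119293 to 35121928, plus strand), the partner of PPARγ in fat cells, held 9 and 8 counts in EV, 11 in TC and 14, 16 and 9 in TC + ATA. No difference was detectable at these counts. Its log2FC in TC + ATA versus EV was 0.82 with a 95% interval from −0.59 to 2.22 (adjusted p = 0.344 from edgeR). Fabp4 (chromosome 3, 10204088 to 10208576, minus strand), a marker of fat cells and a PPARγ target, had 1.64 and 1.50 CPM in EV, 1.24 CPM in TC and 2.16, 1.79 and 2.00 CPM in TC + ATA. TC was the lowest library and the TC + ATA libraries were the 3 highest. None of the comparisons passed the test, with log2FC values of −0.34 in TC versus EV (adjusted p = 0.422 from edgeR), 0.34 for TC + ATA over EV (adjusted p = 0.237) and 0.68 for TC + ATA over TC (adjusted p = 0.465).

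**Figure D3:**
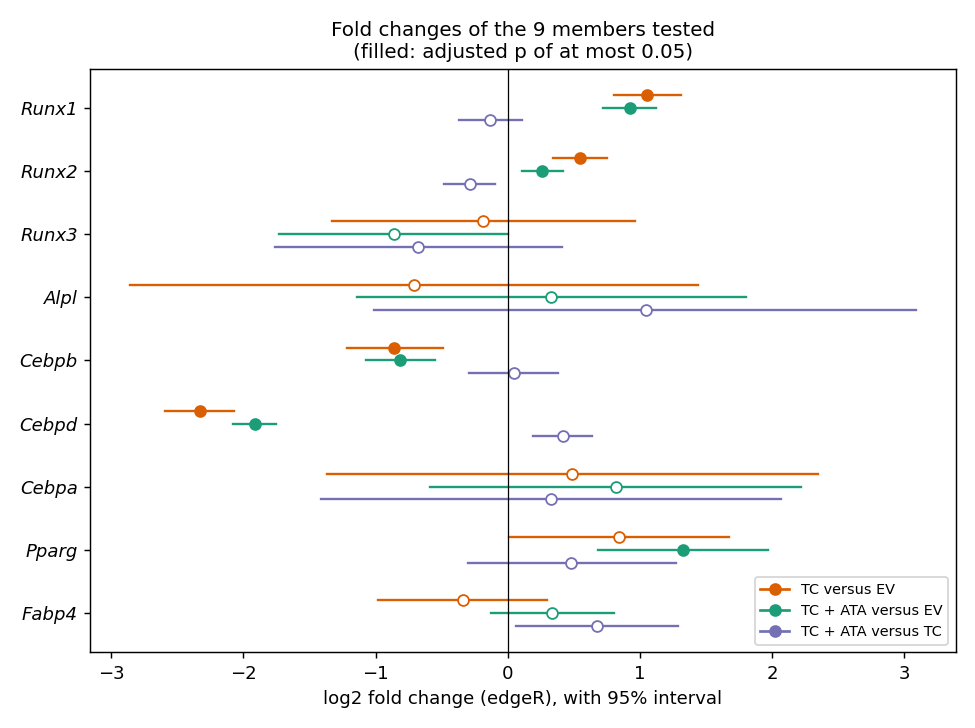
Log2FC (x axis) of the 9 genes tested (y axis) in TC versus EV, TC + ATA versus EV and TC + ATA versus TC, from the edgeR fit of all libraries. Bars are 95% intervals and filled points have an adjusted p of at most 0.05. Filled points are those of Runx1, Runx2, Cebpb and Cebpd against EV and of Pparg in TC + ATA versus EV, and no point for TC + ATA versus TC is filled.

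In TC + ATA versus EV, 5 of the 9 genes tested passed the test, against 36.6% of all genes. Runx1, Runx2 and Pparg were higher, against 18.0% of all genes called higher, and Cebpb and Cebpd were lower, against 18.6% called lower. For 5 genes every TC + ATA library exceeded both EV libraries (the 3 called higher, Cebpa and Fabp4), as for 28.7% of all genes, and for 3 (Runx3, Cebpb and Cebpd) every one was below both, as for 30.1%. This comparison shares the EV libraries with TC versus EV, so the side-by-side values are not independent.

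Between TC + ATA and TC, none of the 9 genes was called by edgeR, against 0.583% of all genes (0.426% higher and 0.156% lower). At an unadjusted p under 0.05 there were 3, namely Runx2, Cebpd and Fabp4, against 9.61% of all genes. DESeq2 called 1 of them, Cebpd, against 285 genes higher and 113 lower among the 18539 that passed the filter. The log2FC of Cebpd was 0.42 (standard error 0.10, 95% interval 0.19 to 0.64, adjusted p = 0.149 from edgeR) and that of Runx2 was −0.29 (standard error 0.08, 95% interval −0.48 to −0.10, adjusted p = 0.263 from edgeR). Both are in the direction of the EV level, and both comparisons with TC rest on the same TC library. When the EV libraries were left out of the fit altogether, Cebpd and Runx2 passed the test (adjusted p = 0.00481 and 0.00874 from edgeR), but that fit called 795 genes higher and 633 lower. They also did without any 1 EV library, with adjusted p = 0.00345 and 0.00272 for Cebpd and 0.00746 and 0.0102 for Runx2 without EV replicates 1 and 2. Over all alternatives the adjusted p ran up to 0.527 for Cebpd and 0.872 for Runx2. All 3 TC + ATA libraries lay above TC for 4 of the 9 genes (Alpl, Pparg, Cebpd and Fabp4), as for 30.5% of all genes, and below it for 3 (Runx1, Runx2 and Runx3), as for 32.7% of all genes. For Runx1 and Cebpb the log2FC values were −0.13 (95% interval −0.37 to 0.11) and 0.05 (95% interval −0.29 to 0.38), and the sign for Cebpb was reversed with the replicate block (−0.11) and without TC + ATA replicate 2 (−0.05).

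The balance of the leading fat and bone regulators was also taken within each library, as a ratio of counts that is free of scaling between libraries. There were 0.0194 and 0.0124 Pparg counts per Runx2 count in EV, 0.0193 in TC and 0.0341, 0.0350 and 0.0294 in TC + ATA. TC lay within the range of EV, and TC + ATA lay above both groups. In the 1 TC library both genes lay above EV, but for Pparg this difference did not pass the test. No test was made on this ratio. The ratio of Cebpa to Cebpb counts was 0.00117 and 0.00104 in EV, 0.00282 in TC and 0.00516, 0.00345 and 0.00212 in TC + ATA, with Cebpa at 8 to 16 counts throughout.

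The wider programs around these regulators were read from gene lists of known pathway members, chosen when earlier results of these data were known, so that their counts are a description and not independent evidence. Among bone matrix and mineralization genes, 17 of 24 were tested, and 9 rose and 3 fell in TC versus EV (70.6% called, against 28.0% of all genes). The median log2FC of the list was 0.46, against −0.03 over all genes. Col1a1 and Col1a2 of this list are also among the 9 fibroblast markers, of which 55.6% were called (2 higher and 3 lower). The largest increases under the naming rule were those of Ogn, which encodes the proteoglycan osteoglycin (log2FC 1.89, standard error 0.08, adjusted p = 9.45e-07 from edgeR), Bglap3 (1.37, adjusted p = 0.0471) and Sparc, which encodes osteonectin (1.21, adjusted p = 4.87e-05). Ogn had 109 and 112 CPM in EV, 410 CPM in TC and 520, 499 and 510 CPM in TC + ATA, and Sparc had 1225 and 1075 CPM in EV and 2655 CPM or more in every library with TC. Of the genes known for phosphate handling and mineralization, Slc20a1, which encodes a phosphate transporter, Smpd3 and Phex rose as well (1.19, 1.06 and 1.05, adjusted p = 1.89e-05, 7.49e-05 and 0.000685 from edgeR). Slc20a2, Col1a1 and Col5a1 rose less (0.46, 0.53 and 0.45, adjusted p = 0.00216, 0.0103 and 0.00420 from edgeR). Bglap3 has near-identical osteocalcin copies that can share reads, rested on at most 2.08 CPM, and lost its call without EV replicate 1 (adjusted p = 0.0783) and without TC + ATA replicates 1, 2 or 3 (0.0609, 0.0712 and 0.0964), and with the replicate block (0.106).

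The bone genes that fell were Tnfrsf11b, which encodes the decoy receptor osteoprotegerin (log2FC −2.33, adjusted p = 2.35e-05 from edgeR), Enpp1, which makes the mineralization inhibitor pyrophosphate (−1.31, adjusted p = 3.88e-05), and Spp1, which encodes osteopontin (−0.77, adjusted p = 0.000625). Tnfrsf11b had 9.27 and 10.0 CPM in EV, 1.92 CPM in TC and 2.78, 2.71 and 2.62 CPM in TC + ATA. The genes that define a mature osteoblast or osteocyte were barely detected. Ibsp and Sost had no count in any library, and Bglap, Bglap2 and Dmp1 stayed at or below 0.158 CPM.

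Of the osteogenic transcription factors and RUNX partners, 12 of 16 were tested, and 1 rose and 3 fell in TC versus EV. This is 33.3% called, against 28.0% of all genes tested (14.8% higher and 13.2% lower). The list median was −0.25. Tle2, a Groucho-type corepressor that binds RUNX proteins, fell most (log2FC −2.56, standard error 0.29, adjusted p = 0.000225 from edgeR), from 36.1 and 61.2 CPM in EV to 8.23 CPM in TC, with 12.7, 12.0 and 14.2 CPM in TC + ATA. Twist2, which encodes a factor that restrains RUNX2, fell by 0.91 on the log2 scale (adjusted p = 0.00128 from edgeR), whereas its paralog Twist1 rose slightly (0.31, adjusted p = 0.0158). Bhlhe40 fell by 0.30 (adjusted p = 0.0495). The call of Twist1 was lost without TC + ATA replicate 2 (adjusted p = 0.0551) and that of Bhlhe40 without TC + ATA replicates 1, 2 or 3 (0.0945, 0.0942 and 0.0972), and both with the replicate block (0.128 and 0.219). The homeobox genes Dlx5, Dlx6 and Msx2, which act with RUNX2 in bone, had at most 2 counts in any library.

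Among adipogenic transcription factors and cofactors, 18 of 19 were tested, and 1 rose and 5 fell in TC versus EV. This is 33.3% called, against 28.0% of all genes tested (14.8% higher and 13.2% lower), and the list median was −0.33. Klf5, which encodes an early activator of Pparg, rose (log2FC 1.15, adjusted p = 3.67e-05 from edgeR), from 18.8 and 19.7 CPM in EV to 42.9 CPM in TC. Zfp467, Ppargc1a, which encodes the coactivator PGC-1α, and Stat5a fell, by 2.17, 1.67 and 0.66 on the log2 scale (adjusted p = 0.00203, 0.0167 and 0.00916 from edgeR). Of the RXR genes, whose products pair with PPARγ, Rxra and Rxrb fell by 0.47 and 0.39 (adjusted p = 0.00499 and 0.00597 from edgeR), and Rxrg had a log2FC of −0.19 at under 1 CPM (adjusted p = 0.826). With the replicate block the calls of Ppargc1a, Stat5a and Rxrb were lost (adjusted p = 0.0801, 0.0591 and 0.0895 from edgeR), and with the groups compared alone in the fit those of Rxra and Rxrb (0.0512 and 0.121). Ppard, which encodes the related receptor PPARδ, fell by 0.76 (adjusted p = 0.000229 from edgeR), from 64.7 and 66.8 CPM in EV to 38.7 CPM in TC. Ppara did not pass the filter.

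Of 11 inhibitors of adipogenesis, all tested, 1 rose and 2 fell in TC versus EV. This is 27.3% called, against 28.0% of all genes tested (14.8% higher and 13.2% lower), and the list median was −0.13. Dlk1, whose product Pref-1 holds preadipocytes back from differentiation, had 1909 and 1711 CPM in EV, 409 CPM in TC and 548, 585 and 555 CPM in TC + ATA. It was among the most abundant genes listed here and dropped in every library with TC (log2FC −2.14 in TC versus EV, standard error 0.12, adjusted p = 2.85e-06 from edgeR). Nr2f2, which encodes COUP-TFII, fell by 1.01 (adjusted p = 4.21e-05 from edgeR). Klf2 rose by a log2FC of 0.65 (adjusted p = 0.00746 from edgeR).

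Among adipocyte and PPARγ target genes, 21 of 26 were tested, and 4 rose and 4 fell in TC versus EV (38.1% called, list median 0.02). Lpl, which encodes lipoprotein lipase, had 23.2 and 25.4 CPM in EV, 189 CPM in TC and 209, 209 and 197 CPM in TC + ATA, a log2FC of 2.96 in TC versus EV (standard error 0.09, adjusted p = 1.62e-07 from edgeR). The triglyceride synthesis gene Agpat2 and the lipase gene Pnpla2 also rose (1.20 and 1.09, adjusted p = 0.00726 and 8.21e-05 from edgeR). Angptl4, which encodes an inhibitor of lipoprotein lipase, fell from 147 and 133 CPM in EV to 37.8 CPM in TC (log2FC −1.89, adjusted p = 3.58e-06 from edgeR), and Fabp5, a FABP4 relative, fell from 171 and 125 CPM to 44.5 CPM (−1.73, adjusted p = 8.41e-05). Lipe fell by 0.51 (adjusted p = 0.0217 from edgeR), a call lost with the replicate block (0.0773) and with the groups compared alone in the fit (0.125). The lowest point of this list is Retn, named after its values were seen, with 75 and 79 counts in EV and at most 5 counts in any library with TC (adjusted p = 0.00877 from edgeR in TC versus EV). The called genes of this list went in both directions, as did those over all genes, and 13 of the 21 were not called. Of the 5 markers of a mature adipocyte, Adipoq, Plin1, Cidec and Lep stayed at or below 0.212 CPM, whereas Retn was at 1.00 and 1.04 CPM in EV.

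**Figure D4:**
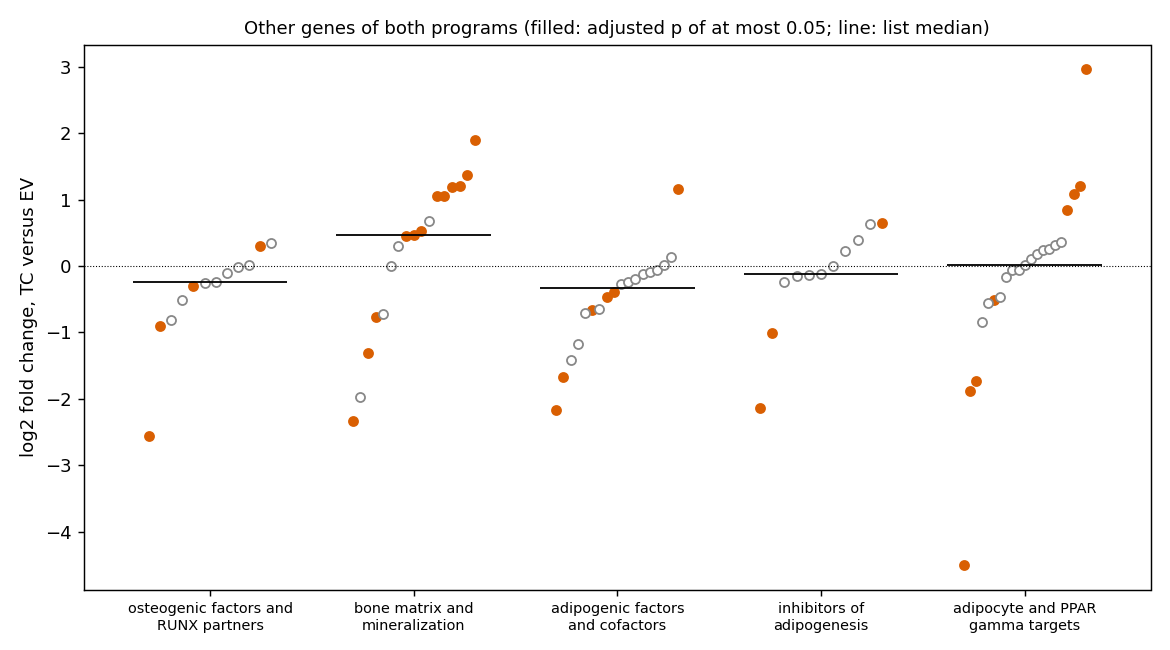
Log2FC in TC versus EV (y axis) of the tested genes in 5 lists of the bone and fat programs (x axis). Each point is a gene, filled where the adjusted p is at most 0.05, and lines are list medians. The median is highest for bone matrix and mineralization genes (0.46) and near 0 for adipocyte and PPARγ target genes (0.02), where Lpl lies highest and Retn lowest.

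Of the 79 genes tested in these 5 lists, edgeR called 0 between TC + ATA and TC, against 0.583% of all genes. At an unadjusted p under 0.05 there were 16 of the 79, against 9.61% of all genes. DESeq2 called 2 of the 79 (Dlk1 and Ogn), against 285 genes higher and 113 lower among the 18539 that passed the filter. In TC + ATA versus EV, 11 bone matrix genes were higher and 3 lower of 17 tested, and 8 adipocyte and PPARγ target genes were higher and 4 lower of 21 tested, against 36.6% of all genes called. Of the FABP family, Fabp3 had 2.37 and 2.56 CPM in EV, 2.38 CPM in TC and 4.42, 4.37 and 4.82 CPM in TC + ATA, so the TC + ATA libraries stood apart from all others. Its log2FC was −0.05 for TC over EV (adjusted p = 0.886 from edgeR), a sign that was reversed without EV replicate 2 (log2FC 0.005), and 0.93 for TC + ATA over TC (standard error 0.19, adjusted p = 0.0937 from edgeR). The second passed the test without EV replicate 1 or 2 (adjusted p = 0.0112 and 0.0109 from edgeR), with DESeq2 (0.00866) and without the filter on low counts (0.0306). Fabp1, Fabp2, Fabp6 and Fabp7 had at most 2 counts in any library. Of the family of SP7, Sp2 rose (0.44, adjusted p = 0.00984 from edgeR) and Sp3 fell by 0.52 (adjusted p = 0.0104) in TC versus EV. Both calls were lost with the replicate block (0.0939 and 0.0662), and that of Sp2 with the groups compared alone (0.0703). Sp1 and Sp4 had log2FC values of 0.05 and −0.22 (adjusted p = 0.693 and 0.432), and that of Sp1 was −0.06 when scaled to library size alone.

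The genes whose pattern over the 6 libraries was most like that of Runx2, by the Euclidean distance of log2 CPM centred per gene among 10424 genes with at least 5 CPM on average, were Mthfd1 (distance 0.0574), Abcb1b (0.0601) and Rrp1b (0.0787). Those most like Pparg were Ube2l6 (0.157), Cbr3 (0.186) and Nqo1 (0.224). The larger distances for Pparg go with its low counts. In TC versus EV, the log2FC values of the first 3 were 0.51 to 0.58 and those of the others were 0.90, 0.84 and 0.68.

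Markers of other mesenchymal lineages were examined beside these results. Sox9, the chondrocyte regulator, had 54.5 and 56.3 CPM in EV, 47.3 CPM in TC and 33.4, 32.6 and 30.3 CPM in TC + ATA, and was called lower in TC + ATA versus TC (log2FC −0.56, adjusted p = 0.0259 from edgeR), while the cartilage genes Acan, Col2a1, Col10a1 and Comp stayed at or below 0.474 CPM. Of the muscle markers, Acta1 and Ckm were present at 172 to 368 CPM and 71.0 to 134 CPM, and Myod1, Myog and Myf5 stayed at or below 1.18 CPM. Acta1 and Ckm were called higher in TC + ATA versus EV (log2FC 0.57 and 0.48, adjusted p = 0.0235 and 0.0227 from edgeR). Myod1, Myog and Myf5 were not called there, and Myod1 and Myf5 went the other way (log2FC −0.59, 0.45 and −1.34, adjusted p = 0.292, 0.605 and 0.0647 from edgeR). Endothelial markers summed to 1.69 to 3.75 CPM and epithelial markers to 0.105 to 0.494 CPM. Of the endothelial markers, Cdh5 was called higher in TC versus EV (log2FC 1.55, adjusted p = 0.0385 from edgeR) and Kdr in TC + ATA versus EV (log2FC 1.13, adjusted p = 0.0349 from edgeR). Cdh5 had 0.655 and 0.315 CPM in EV, 1.43 CPM in TC and 0.581, 0.804 and 0.618 CPM in TC + ATA. Its call thus rests on the 1 TC library. Pecam1, Tie1 and Tek were called in neither comparison, with log2FC values of −0.02, −0.24 and 0.64 in TC versus EV. The part of these markers of other lineages in the changes of the 10 regulators was not tested.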

How the data were processed

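Bulk RNA-Seq was analysed in 6 libraries, grouped by their titles. The authors selected poly(A) RNA, sequenced paired ends, aligned to GRCm38.p6 (mm10) with HISAT2 (version 2.2.1 in the submitters' processing notes) and used featureCounts. What they deposited are raw counts per gene, not normalized. The annotation release and the use of strand are not given in the sources used here. Symbols, positions and exon lengths came from GENCODE M21, which holds 55141 of the 55401 identifiers. All 162 list symbols matched, and Ddit3, with 2 identifiers, was taken by the first.

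All 6 libraries were fitted in R 4.3.3 with edgeR 4.0.16 (TMM, filterByExpr, glmQLFit, glmQLFTest, 3 residual degrees of freedom, Benjamini-Hochberg adjustment over 18539 genes). Standard errors came from the F statistic. DESeq2 1.42.0 was an alternative. The lists and the members were chosen with earlier results of these data known. From each list, up to 3 called genes per direction for TC versus EV (2 for TC + ATA versus TC), by size of change at 0.5 CPM or more on average, and all family members were named. Retn, Phex, Slc20a1, Slc20a2, Smpd3, Col1a1, Col5a1 and the cell type markers were named after their values were seen. The fit was tested on simulated data.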

Additional observations from a re-analysis of the deposited data

How the results depend on the processing

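The calls of Runx1, Cebpb and Cebpd against EV and of Runx2 in TC versus EV, and that of Pparg in TC + ATA versus EV, kept their direction and their side of the threshold under every alternative run. Over these, the log2FC for TC over EV ran from 0.95 to 1.09 for Runx1, from 0.44 to 0.62 for Runx2, from −0.96 to −0.76 for Cebpb and from −2.44 to −2.24 for Cebpd, and that of Pparg in TC + ATA versus EV from 1.10 to 1.58. Of the values of single genes under alternatives, 852 kept direction and side, 34 lost and 15 gained a call, and 10 changed sign. Of these, in TC versus EV, the log2FC with a replicate left out ran from −0.373 to 0.014 for Runx3, −0.523 to 0.219 for Rxrg, −0.040 to 0.082 for Cebpg, −0.192 to 0.027 for Cebpz, −0.118 to 0.005 for Fabp3 and −0.013 to 0.111 for Sp1, always with the extremes set by leaving out an EV library. With library size alone it was −0.083 for Cebpg and −0.056 for Sp1. In TC + ATA versus TC, Cebpb was at −0.112 with the replicate block and ran from −0.048 to 0.169 with a replicate left out.

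Counts of calls moved with the libraries that entered the fit. Under a replicate block, edgeR called 1717 genes higher and 1467 lower for TC over EV, 32 and 8 for TC + ATA over TC, and 2195 lower for TC + ATA over EV. The numbers are shared only in the labels, and same-numbered EV and TC + ATA libraries did not deviate together (correlations of 0.023 and −0.215 across genes). The EV deviations are mirror images of each other, so both correlations rest on the same EV difference and are not separate checks. In TC + ATA versus TC, edgeR called 79 genes higher and 29 lower. These became 242 and 108 without a filter on low counts, 285 and 113 with DESeq2, and 795 and 633 with only the groups compared. With a replicate left out, they ran from 7 to 808 and from 3 to 762, fewer without a TC + ATA library and more without an EV library. Of the 9 members, 1 was then called higher without a filter, with DESeq2 and with only the groups compared, and 1 lower with only the groups compared, and the range with a replicate left out was 0 to 1 in each direction. Genes called lower in TC versus EV ran from 1912 to 3708. Where EV was left with 1 library, it is assumed to vary as the TC + ATA libraries do. The TC library could not be left out. Under 20 counts per library, as for Alpl, Cebpa and Sp7, depth limits what can be seen.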
